A study of Mus musculus with 7 samples.

Results

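Double-stranded RNA in a cell is read by a small set of sensor proteins, and 10 genes of that system were followed in mouse haematopoietic stem cells (HSCs) with and without Mettl3. They are the receptors Ddx58, Ifih1, Dhx58 and Tlr3, the adaptor Mavs, the kinases Tbk1 and Eif2ak2, the editing enzyme Adar, and Zbp1 and Mlkl of the necroptosis pathway. The genes were chosen by symbol, all 10 were found among the 23038 genes of the deposited table, and none was left out by a filter on low values. The HSCs were sorted as Lineage- Sca1+ cKit+ CD150+ CD48- bone marrow cells of C57BL/6 mice, 150 cells to a library, and their RNA was sequenced by Smart-seq2, which copies whole transcripts from few cells. Of 7 libraries, 3 came from Cre-negative control littermates and 4 from Mx1-cre; Mettl3fl/fl mutants, as separate biological replicates. Every animal, control or mutant, had been given 5 doses of 10 µg pIpC and was taken 10 days after the last. The animals' ages were not given in the sources used here.

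RIG-I (encoded by Ddx58) and MDA5 (Ifih1) are helicases that bind double-stranded RNA in the cytosol and pass the signal to MAVS on the outer mitochondrial membrane, where the kinase TBK1 is engaged and the interferon genes are switched on. TLR3 signals from the endosome through a different adaptor, not MAVS, and also leads to TBK1 and the interferon genes. PKR (Eif2ak2) stops translation by phosphorylating eIF2alpha, and ADAR1 (Adar) edits adenosines so that self RNA is no longer read as foreign. ZBP1 can lead through RIPK3 to MLKL, which breaks the plasma membrane. Most of these genes are themselves induced by interferon. METTL3 is the enzyme that places N6-methyladenosine (m6A) on mRNA. The inducer pIpC is a synthetic double-stranded RNA, a ligand of these very sensors, and it acts on the Mx1 promoter through interferon, in many tissues and not in HSCs alone. Control and mutant cells had both been exposed to it, so neither group stands for unstimulated cells.

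The sequence around each start site differed among these genes. The windows of 5 members are shown because they include the member farthest apart between the groups, Mavs, beside genes whose windows hold motifs of the interferon response. RefSeq windows of 300 bases, from 250 before to 50 after the annotated start (build GRCm38.p6), were at hand for 8 of the 10 members, with 3 windows for Adar; Dhx58 and Zbp1 are named only. Capitals mark matches on either strand to the core of the interferon-stimulated response element, GAAA and GAAA with 2 bases of any kind between them, and to its half-site AANNGAAA. The second motif was added after the windows had been read, and a match to it can lie inside a match to the first.
Mavs, chr2:131233813-131234112, plus strand, no match: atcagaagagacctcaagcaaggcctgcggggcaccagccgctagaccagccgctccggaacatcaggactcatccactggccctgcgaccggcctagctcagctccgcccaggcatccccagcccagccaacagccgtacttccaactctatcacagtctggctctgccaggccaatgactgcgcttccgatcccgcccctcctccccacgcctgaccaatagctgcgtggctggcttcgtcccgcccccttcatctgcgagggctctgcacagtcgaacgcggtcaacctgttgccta
Eif2ak2, chr17:78882523-78882822, minus strand: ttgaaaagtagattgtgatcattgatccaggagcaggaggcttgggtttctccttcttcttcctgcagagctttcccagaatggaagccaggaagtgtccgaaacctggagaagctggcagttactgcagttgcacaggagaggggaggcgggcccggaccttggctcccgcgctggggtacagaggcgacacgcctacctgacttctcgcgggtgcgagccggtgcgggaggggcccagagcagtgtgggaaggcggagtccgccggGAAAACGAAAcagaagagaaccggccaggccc
Ifih1, chr2:62646206-62646505, minus strand: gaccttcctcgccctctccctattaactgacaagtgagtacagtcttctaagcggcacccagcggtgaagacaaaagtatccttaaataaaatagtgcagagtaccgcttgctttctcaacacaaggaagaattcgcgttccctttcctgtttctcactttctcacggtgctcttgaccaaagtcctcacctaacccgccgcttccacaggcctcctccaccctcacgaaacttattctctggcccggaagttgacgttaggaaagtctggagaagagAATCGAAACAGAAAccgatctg
Ddx58, chr4:40239776-40240075, minus strand: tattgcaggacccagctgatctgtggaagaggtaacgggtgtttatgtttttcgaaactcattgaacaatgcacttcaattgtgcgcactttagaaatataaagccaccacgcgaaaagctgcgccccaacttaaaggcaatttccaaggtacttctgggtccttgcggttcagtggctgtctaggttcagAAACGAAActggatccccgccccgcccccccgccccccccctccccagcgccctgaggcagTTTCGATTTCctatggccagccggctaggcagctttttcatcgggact
Adar, the window farthest downstream, chr3:89730468-89730767, plus strand: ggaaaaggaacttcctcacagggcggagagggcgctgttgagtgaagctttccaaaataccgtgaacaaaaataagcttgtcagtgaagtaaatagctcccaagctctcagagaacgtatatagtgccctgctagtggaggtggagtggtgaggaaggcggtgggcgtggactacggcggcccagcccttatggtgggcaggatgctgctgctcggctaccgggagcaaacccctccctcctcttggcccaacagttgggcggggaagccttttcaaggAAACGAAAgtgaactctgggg

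The response element core was found in the windows of Ddx58, Ifih1 and Eif2ak2, and in 3.44% of all 32851 windows of this length. In these members it began after the annotated start, at base 3 in Ddx58, 33 in Ifih1 and 19 in Eif2ak2. AANNGAAA was found in these 3 and also in the window of Tlr3 and in the downstream window of Adar, against 23.9% of all windows. The Adar match began at base 30 after its start, whereas that of Tlr3 and 1 of those of Ddx58 lay before the start. The windows of Tlr3, Mlkl and Adar lie wholly inside the gene positions given below. The starts they are set on are therefore not the outermost of those genes, and the Tlr3 match is within the gene. The windows of Mavs, Tbk1 and Mlkl and the other 2 windows of Adar held neither. The gamma-activated site TTCNNNGAA was matched in Eif2ak2 and in the downstream window of Adar (8.30% of all windows), and the NF-kB motif, GGG and CC with 5 bases of any kind between them, in Tlr3, Tbk1, Eif2ak2 and 2 windows of Adar (50.8%). A match is a stretch of letters and not a measured binding site.

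Levels are in RPKM, that is, reads per kilobase of gene scaled to library depth, a unit in which levels can also be set side by side between genes. The authors deposited 1 mean per gene and group. No spread between animals can be had from these means, no test was possible, and a mean carried by a single library cannot be told from one shared by all. Differences are given as the ratio of the deposited means and as log2((mutant + 1)/(control + 1)), with 1 RPKM added to each mean, which understates the change of low genes. Mettl3 itself averaged 49.8 RPKM in control cells and 9.60 RPKM in mutant cells, 19.3% of the control level. In 8500 genes the means stood in 1 fixed ratio, 0.841, and these were taken as genes without reads; the other 14538 genes are called genes with reads. If the small value left in the genes without reads stands for 1 read, the members rested on between 82.6 reads per library for Tlr3 and 2582 for Mlkl in controls, and between 146 and 3852 for the same genes in mutants. All 9 HSC markers examined had reads, with a summed level of 733 RPKM in control and 501 RPKM in mutant cells. Markers of other blood cells had reads in 8 of 9 for macrophages or monocytes (435 and 401 RPKM summed), 3 of 6 for dendritic cells (176 and 214), 4 of 6 for neutrophils (14.5 and 5.80), 3 of 7 for T or NK cells (127 and 111) and 2 of 4 for B cells (132 and 133). These sums rest on few genes, which went both ways in every list but that of B cells. Both B cell markers with reads were higher in mutants, by a log2 difference of 0.01 at most. Of the 8 macrophage or monocyte markers with reads 6 were higher in mutants, beside 52.6% of all genes with reads. Their median log2 difference was 0.28. But 5 of the 9 markers, Csf1r included, were below 1 RPKM in both groups, and those above it went both ways. Cd68 was 4.09-fold higher (26.4 and 108 RPKM) and C1qa was at 0.212 and 1.38 RPKM. Lyz2, most of the sum, was lower (406 and 289 RPKM), and C1qb was at 1.87 and 0.904 RPKM. Among dendritic cell markers Bst2 was at 166 and 209 RPKM and Flt3 at 9.76 and 4.71 RPKM. Among T or NK cell markers Nkg7 was at 124 and 62.3 RPKM and Ccl5 at 0.270 and 46.6 RPKM. Csf1r, Siglech, Itgax, Xcr1, Ltf, Ngp, Cd3e, Cd3g, Cd8a, Gzma, Cd79a and Ms4a1 had no reads in either group. The part of other cells in the values below was not tested, and fewer cells of a type and less RNA per cell cannot be told apart in such samples.

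The adaptor was the member that stood apart. Mavs (NCBI Gene 228607, chromosome 2, 131234063 to 131248025) averaged 11.6 RPKM in control cells and 30.5 RPKM in mutant cells, 2.63-fold higher, with a log2 difference of 1.32. It was the only member at least 2-fold apart on the log2 scale, 1 of 10, while 7.14% of all genes with reads were. Only 3.60% of the 10486 genes with at least 1 RPKM in both groups had means at least as far apart as those of Mavs. Among the 10 members it was the sixth by level in controls and the third in mutants. The deposited table opens with 365 rows that do not follow the gene identifier, unlike the rows after them. Mavs was the 1 member among these rows, which make up 1.58% of the table. All 365 are genes with reads, as are all 10 members, so their share of the genes with reads is larger than that.

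The 4 receptors showed no common direction. Ddx58, which encodes RIG-I and responds to short RNA with a 5′ triphosphate (chromosome 4, 40203777 to 40239825), averaged 9.12 RPKM in control cells and 8.74 RPKM in mutant cells. Ifih1, which encodes MDA5, a sensor of long double-stranded RNA (chromosome 2, 62595618 to 62646255), was at 13.5 and 10.9 RPKM, the lowest mutant/control ratio of the members at 0.805. A difference at least as large as that of Ifih1 was seen in 52.7% of genes with at least 1 RPKM in both groups, and as large as that of Ddx58 in 89.5%. Dhx58, which encodes LGP2, a relative of both that lacks the signalling domains and modulates them (chromosome 11, 100694884 to 100704271), was at 19.0 and 20.5 RPKM. Summed, the 3 cytosolic receptors were at 41.6 RPKM in control and 40.1 RPKM in mutant cells. Mavs came to 0.279 of the receptors' summed RPKM in controls and 0.761 in mutants.

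Tlr3, the endosomal receptor (chromosome 8, 45395665 to 45411075), was by far the lowest member, at 0.777 RPKM in control and 1.15 RPKM in mutant cells. Its ratio of 1.48 rested on fewer reads than that of any other member. Of the genes with at least 1 RPKM in both groups, 29.1% were as far apart. Tlr3 itself is outside that set, since its control mean is below 1 RPKM. The level in controls exceeded that of 21.5% of genes with reads, whereas the other 9 members exceeded between 55.4% (Zbp1) and 84.0% (Mlkl).

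**Figure D1:**
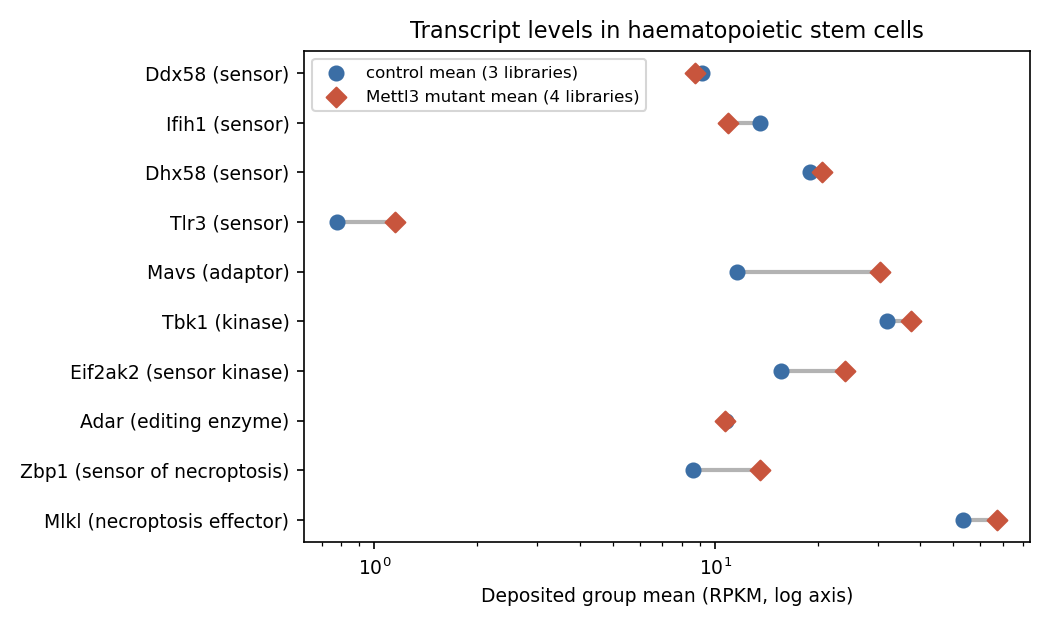
Group means of the 10 genes in RPKM on a log axis, with a blue circle for the control mean (3 libraries) and a red diamond for the mutant mean (4 libraries); the deposited means carry no error. The pair for Mavs is the widest (11.6 and 30.5 RPKM), the pairs for Zbp1, Eif2ak2 and Tlr3 are about 1.5-fold apart, and the Adar circle lies behind its diamond.

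Tbk1, the kinase that phosphorylates IRF3 downstream of MAVS and of the TLR3 adaptor (chromosome 10, 121546455 to 121586794), averaged 32.0 RPKM in control cells and 37.6 RPKM in mutant cells, a ratio of 1.17 that 63.3% of genes equalled or exceeded in size. It was the second highest member in both groups.

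Eif2ak2 and Adar act on either side of the double-stranded RNA response and differed in their values. Eif2ak2, which encodes PKR (chromosome 17, 78850504 to 78882572), averaged 15.6 RPKM in control cells and 24.0 RPKM in mutant cells, 1.54-fold higher with a log2 difference of 0.59. Differences of that size or larger were found in 25.5% of genes with at least 1 RPKM in both groups. Adar (chromosome 3, 89714469 to 89753455) was at 10.7 RPKM in both means, with a log2 difference of -0.004, a sign that turned (0.007) once both columns had been scaled to 1 sum. The value covers the whole gene, so the interferon-inducible p150 form and the constitutive p110 form, which start from different promoters, cannot be told apart. Ifih1, Ddx58 and Eif2ak2 share the response element core in their windows, and their ratios of 0.805, 0.958 and 1.54 lay on both sides of 1.

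Both members of the necroptosis branch were higher in the mutant mean. Zbp1, a sensor of nucleic acids in the Z conformation (chromosome 2, 173206612 to 173218959), averaged 8.63 RPKM in control cells and 13.5 RPKM in mutant cells, 1.57-fold higher, the second largest log2 difference of the members (0.594, beside 0.591 for Eif2ak2). Mlkl, the executioner pseudokinase (chromosome 8, 111311255 to 111338479), was the highest member in both groups, at 53.4 and 67.0 RPKM, a ratio of 1.25. Differences as large as that of Zbp1 were found in 23.7% of genes and as large as that of Mlkl in 51.0%.

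In all, 7 of the 10 members had the higher mean in mutants and 3 in controls, where 52.6% of all genes with reads were higher. Their median log2 difference was 0.25, beside 0.02 over all genes with reads, and the values ran from -0.29 for Ifih1 to 1.32 for Mavs. With a threshold of 1.5-fold on the same scale, Mavs, Zbp1 and Eif2ak2 were apart, 3 of 10, and 23.4% of all genes with reads were; Zbp1 and Eif2ak2 lay just past that threshold, which only Mavs passed once mutant values had been divided by the median ratio of genes with at least 1 RPKM in both groups, and Mlkl, at 0.32, was the next below it.

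**Figure D2:**
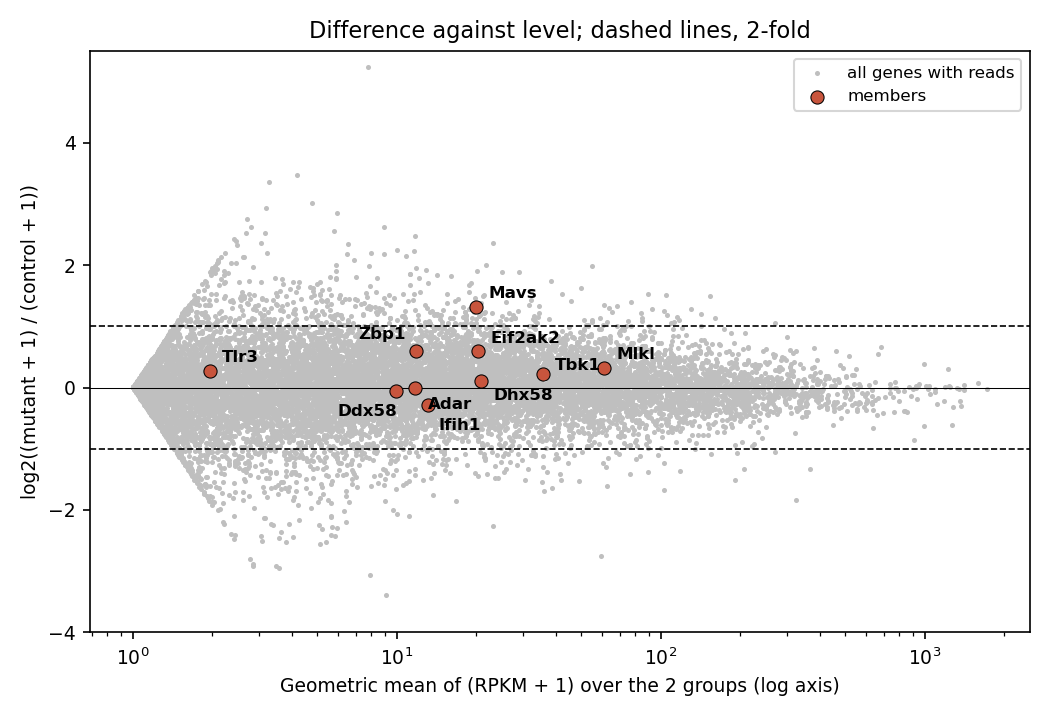
Each grey point is a gene with reads, placed by the geometric mean of its 2 group means plus 1 RPKM (log axis) and by its log2 mutant/control difference; red points are the 10 members and dashed lines mark 2-fold. Mavs (1.32) is the member beyond the dashed lines, and the other 9 lie among the bulk of genes, between -0.29 and 0.59.

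Reads from a gene on the opposite strand would be counted with a member if the counting ignored strand, and the treatment of strand was not given in the sources used here. In GENCODE M21, no other gene overlaps Mavs, Ddx58, Ifih1, Tbk1 or Zbp1. Adar overlaps Chrnb2 on the other strand, which averaged 0.256 RPKM in control cells and 0.298 RPKM in mutant cells. The non-coding genes that lie opposite Dhx58, Tlr3, Eif2ak2 and Mlkl had no row matched by symbol, so their levels are not analysed here.

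METTL3 methylates adenosine in mRNA, and the members' transcripts were searched for GGACT, a frequent form of the METTL3 consensus in which the adenosine is the methylated base. Matches were counted on the mRNA strand in 1 GENCODE M21 coding transcript per gene; m6A itself was not measured here. Across 12256 coding genes with reads the median was 1.05 matches per kilobase, and 8.39% had none. Dhx58 had the highest density of the members, with 7 matches in 2412 bases (2.90 per kilobase, above 97.4% of genes), and Eif2ak2 had 9 in 4313 bases (2.09 per kilobase), of which 7 were in the 3′ untranslated region. Tlr3 had 8, Ddx58 5 and Tbk1 4, and Adar, Ifih1 and Mlkl had 3 each. Zbp1 had 1, near the end of the coding sequence. Matches near that end were also held by Dhx58 (2), Ddx58 (1) and Tbk1 (1). Mavs had 3 matches in 3057 bases (0.981 per kilobase, above 45.4% of genes), and they are printed with the motif in capitals because Mavs was the member farthest apart. All are on the plus strand of GRCm38, in exons 1, 3 and 7 of 7.
Mavs 5′ untranslated region, chr2:131234150-131234170: ggtgctcaGGACTctgtgttc
Mavs coding sequence, chr2:131240358-131240378: cactctggGGACTcttcaata
Mavs 3′ untranslated region, chr2:131247359-131247379: ttctctgtGGACTcttaagaa

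The densities did not order the members by their difference between groups, and a link between matches and differences was not tested. Dhx58, the densest, had a log2 difference of 0.11, while Mavs and Zbp1, both below the median density, had 1.32 and 0.59. Ifih1, with 0.548 matches per kilobase, was the member with the lowest ratio, and Eif2ak2, with 2.09, was among the 3 highest.

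**Figure D3:**
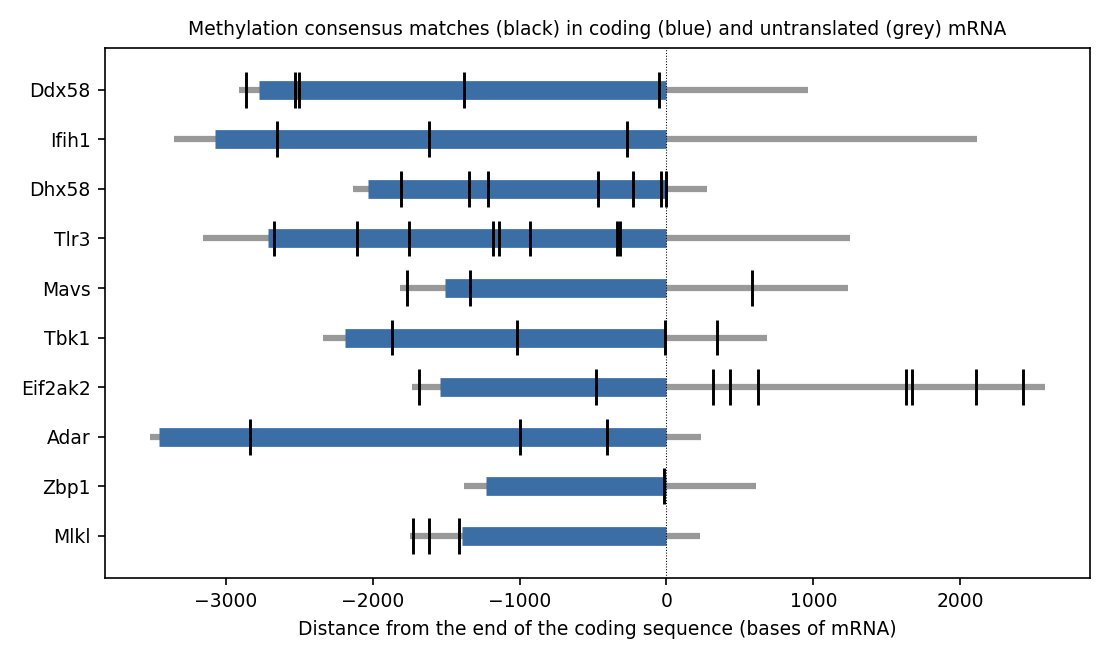
The mRNA of each member drawn to scale and aligned at the end of its coding sequence (0 on the axis, in bases), with coding sequence in blue, untranslated regions in grey and each match to the methylation consensus as a black bar. Eif2ak2 carries 7 of its 9 matches in the 3′ untranslated region, whereas the 3 matches of Mavs are 1 in each region.

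The neighbours of the members in the pathway were followed through 8 lists, with 2-fold counted on the log2 scale with 1 RPKM added. Over all genes with reads, 52.6% were higher in mutants and 7.14% were at least 2-fold apart. Of 20 other sensors and double-stranded RNA binding proteins with reads, 14 had the higher value in mutants and 6 in controls, none was 2-fold apart and the median log2 difference was 0.14. Zc3hav1, the antiviral zinc finger protein ZAP, averaged 8.97 RPKM in control cells and 17.3 RPKM in mutant cells. The RNA helicase gene Dhx36 was at 7.97 and 14.6 RPKM.

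Regulators of the RIG-I-like receptors were level as a list, with 8 of 17 higher, none 2-fold apart and a median of -0.004. Rnf125, a ubiquitin ligase that marks RIG-I for degradation, averaged 36.0 RPKM in control cells and 24.2 RPKM in mutant cells. Riok3, a kinase of MDA5, was at 27.4 and 18.2 RPKM, and Mex3c, a ubiquitin ligase of RIG-I, at 1.73 and 2.99 RPKM.

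Of the 20 genes that signal below Mavs, Tlr3 and Tbk1, 12 were higher, 2 of them at least 2-fold (3.67% of all genes with reads were), and none was 2-fold lower on that scale; the median was 0.20. The 2 were Irf7, the interferon-induced factor that amplifies interferon transcription (27.0 and 73.3 RPKM), and Tradd, an adaptor of the death receptor and MAVS complexes (50.6 and 108 RPKM). With no pseudocount, 2 genes were 2-fold lower: Ikbke, the kinase closest to Tbk1, at 13.1 RPKM in control and 6.32 RPKM in mutant cells (2.07-fold), and Tbkbp1, a Tbk1-binding adaptor named for this reason after its values were seen (2.04-fold).

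Of 14 genes of necroptosis and the death receptor complex, 8 were higher, with a median of 0.10. Ripk1 was the 1 gene 2-fold apart (7.14% of all genes with reads were). Ripk1, the kinase that joins death receptor, TLR3 and MAVS signalling, averaged 12.5 RPKM in control cells and 26.8 RPKM in mutant cells. Gsdmd, which forms the pores of pyroptosis, was at 77.0 and 51.6 RPKM, and Tnfrsf1a, the receptor of tumour necrosis factor, at 36.3 and 52.1 RPKM.

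The genes around eIF2alpha, the substrate of PKR, had a median of -0.35, the lowest of the 8 lists, with 5 of 12 higher. Ppp1r15a, which directs a phosphatase to eIF2alpha and reverses PKR, averaged 280 RPKM in control cells and 132 RPKM in mutant cells, and it was the only gene of the list 2-fold lower (3.47% of all genes with reads were). Ddit3, the stress-induced factor CHOP, was at 70.5 and 40.1 RPKM. Eif2ak1, the haem-regulated kinase of eIF2alpha, was at 28.9 and 49.2 RPKM. Eif2ak4, the kinase GCN2, was at 12.95 and 7.50 RPKM, and Eif2ak3, the kinase PERK, at 0.940 and 1.76 RPKM, so the eIF2alpha kinases had no common direction; both were named after their values were seen.

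Cytosolic DNA sensing and nucleic acid clearance had a median of -0.01 with 5 of 13 higher and none 2-fold apart. Samhd1, which degrades deoxynucleotides, averaged 29.9 RPKM in control cells and 18.7 RPKM in mutant cells, Trex1, an exonuclease that clears cytosolic DNA, at 33.6 and 50.2 RPKM, and Tmem173, which encodes STING, at 66.7 and 84.4 RPKM.

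The oligoadenylate synthetases with RNase L, a further branch of double-stranded RNA sensing, had 9 of 10 genes higher, beside 52.6% of all genes with reads. Their median was 0.46. On the log2 scale 1 gene was at least 2-fold higher and 1 lower (3.67% and 3.47% of all genes with reads were). Oas3, the family member with the longest protein, averaged 4.32 RPKM in control cells and 8.45 RPKM in mutant cells, and Oasl1 was 2.61-fold higher. Oas1c was the exception, 9.49-fold lower.

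Interferons and interferon-induced transcripts had 14 of 17 higher, beside 52.6% of all genes with reads, and a median of 0.46. The 14 include Ifnb1, and 13 were higher when at least 1 RPKM in 1 group was required. The 3 lower, named after their values were seen, were Usp18 (50.5 and 41.9 RPKM), Mx2 (4.58 and 3.84 RPKM) and Mx1 (2.02 and 1.74 RPKM). At least 2-fold higher were 3, Ccl5 and Cxcl10 among them, where 3.67% of all genes with reads were. Ccl5, which is also on the T or NK cell marker list, was at 0.270 and 46.6 RPKM and Cxcl10 was 12.3-fold higher. Bst2, also a dendritic cell marker, is on this list too. The interferon genes themselves were near or at zero: Ifna2, Ifna4 and Ifng had no reads in either group. Ifnb1, singled out after its values were seen, averaged 0.0538 RPKM in control cells and 0.424 RPKM in mutant cells. Its control value was of the size left in genes without reads, such as 0.0644 RPKM for Ifna4 in controls. That value may hold no reads, so no ratio is given for Ifnb1. The members' median of 0.25 was lower than the medians of these 2 lists and higher than those of the other 6, and these medians were not tested against each other.

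**Figure D4:**
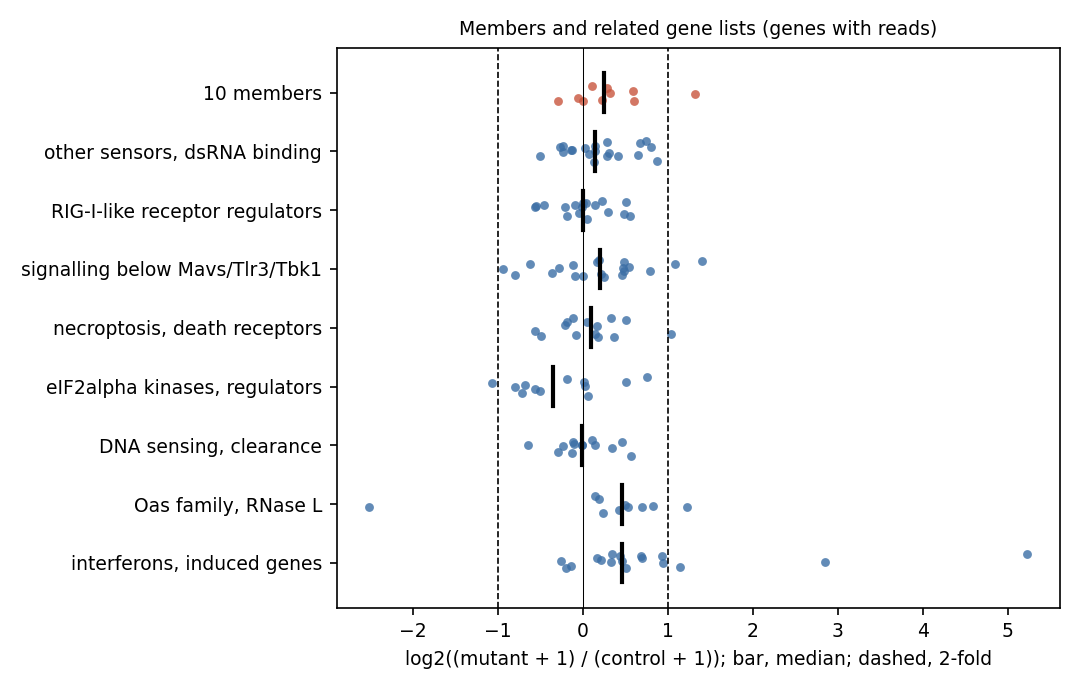
Log2 mutant/control differences of the genes with reads in the 10 members (red) and in the 8 related lists (blue), with black bars at the medians and dashed lines at 2-fold. The members' median is 0.25, the lowest median is that of the eIF2alpha list (-0.35), and Ccl5 (5.23) and Oas1c (-2.52) are the farthest points.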

How the data were processed

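The authors deposited 1 table of RPKM with 1 column per group, per the file headers, pooling 3 control and 4 mutant libraries. Per the submitters' processing notes, Picard and edgeR were used and reads were placed on mm10, with the aligner, the annotation, each tool's role and the averaging not given in the sources used here. The columns were used as deposited (sums of 503762 RPKM in controls and 499616 RPKM in mutants), with Python 3.11.15 and pandas 2.3.3. Group means carry no replicate error, so only sizes are given. Genes whose mutant/control ratio equalled 0.841 (relative tolerance 1e-05) were taken as without reads. That offset is 0.0414 RPKM on 1 kb in controls and 0.0349 RPKM in mutants; if it is 1 read, 1 RPKM on 1 kb is 24.1 reads in controls and 28.7 reads in mutants, and the longest GENCODE M21 coding transcript gave each member's reads. Named genes are the 10 members, Mettl3 and the 3 genes farthest apart on each list with at least 1 RPKM in 1 group; some of these are not reported here. Members and lists were chosen with earlier results of these data known. Positions and promoter windows are RefSeq's on GRCm38.p6 (mm10); all 10 members matched. The counting of folds and of genes without reads was checked on a simulated table with known differences; that checks the computation and no difference reported here.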

Additional observations from a re-analysis of the deposited data

How the results depend on the processing

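Mavs was the only member 2-fold apart under each rescaling, pseudocount, offset and filter setting run, with log2 differences from 1.30 to 1.39. With the 1.5-fold threshold 3 members passed, but 1 (Mavs) once mutant values had also been divided by the median ratio, a combination added after seeing the data, and 1883 genes of the table were higher and 1516 lower. With a pseudocount of 0.1 RPKM, 1508 genes were at least 2-fold higher and 1347 lower, against 534 and 504 as reported, and with none 1981 and 1674, since low genes then pass. The sign of Adar turned once both columns had been scaled to 1 sum; those of the other 9 members did not turn. Tlr3 ran from 0.26 to 0.57, the upper value without a pseudocount. Of 380 other values, 7 moved by over 1.5 times, that count and the values of Ccl5, Cxcl10 and Oas1c with a pseudocount of 0.1 or none, and 0 of the values 2-fold apart reversed. No paired analysis was possible because each column is the mean of a group and carries no replicate number, and leaving out replicates was not run for the same reason.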

Other observations

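The deposited table has an order of its own. Its first 365 rows do not follow the gene identifier and the remaining 22673 do, without exception. The meaning of the order was not given in the sources used here. The 365 genes (159 higher and 206 lower in the mutant mean) make up 1.58% of the table, genes without reads included. They were each at least 1.81-fold apart by the ratio of the means, whereas 2071 later genes with at least 1 RPKM in a group were as far apart. Mavs, in row 207, was the only member among them, 1 of 10. Of the related lists, Irf7, Tradd, Ripk1, Oas1c and Ccl5 were among the genes in these rows, while Cxcl10, 12.3-fold higher in the mutant mean, and Oasl1 were not. Of genes with at least 10 RPKM in a group, 99 outside these rows were at least as far apart as Mavs.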
